A study of Mus musculus with 2 samples.

Results

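The G1 cyclins, their kinases and the inhibitors that hold them in check were read as a set of 10 genes: Ccnd1, Ccnd2, Ccnd3, Ccne1, Ccne2, Cdk4, Cdk6, Cdkn1a, Cdkn1b and Cdkn2a. They were found as the non-control probes whose gene name in the array files is that of a member, which gave 23 probes for 10 genes out of 32942 gene names on the array. The rule used no measured value. RNA was taken from mouse 46C cells, an embryonic stem cell line in which GFP reports Sox1, on day 5 of neural differentiation in suspended aggregates fed with serum replacement. A single array was hybridised for the wild type genotype and another for a genotype labelled KO-Linc1548, in which a long intergenic non-coding RNA is knocked out. How the knockout was made and whether it is 1 clone is not given in the sources used here. The comparison asks what this RNA does as epiblast-like cells become neural progenitors.

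Cyclins D and E drive the passage from G1 into DNA replication. The D cyclins bind Cdk4 or Cdk6 and the E cyclins bind Cdk2, and these kinases phosphorylate the retinoblastoma protein, which frees E2F factors to switch on genes of S phase. Inhibitors of the CIP/KIP class (Cdkn1a, or p21, and Cdkn1b, or p27) act on cyclin-kinase complexes broadly, and INK4 proteins bind Cdk4 and Cdk6 directly. Mouse embryonic stem cells are known for a short G1 with abundant cyclin E and little cyclin D, and G1 lengthens as they differentiate.

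On the knockout array the signals of cyclins D1 and D2 were lower by 3.07-fold and 3.25-fold, and those of cyclin E1 and of Cdkn2a were higher by 2.25-fold and 2.46-fold. The other 6 genes lay within 2-fold of wild type. With 1 array per group there is no replicate check of any difference here and none was tested. A fixed limit of 2-fold stands in for a test. Among the members 2 of 10 were higher and 2 of 10 lower by that much, against 11.5% higher, 8.81% lower and 20.3% in either direction of the 18671 genes with a value on both arrays. By probe, 2 of the 21 measured member probes were higher and 4 lower, against 10.5% and 8.44% of 31536 probes, or 18.9% either way. At a limit of 1.5-fold the members count 3 higher and 3 lower, against 21.6% and 16.7% of genes. The members' median log2 difference was −0.14 against 0.10 over all genes. In the plot of members among all genes, Ccnd2 lay at percentile 3.12 and Ccnd1 at percentile 3.51 of all gene differences, whereas Cdkn2a lay at percentile 91.9 and Ccne1 at percentile 90.6.

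**Figure D1:**
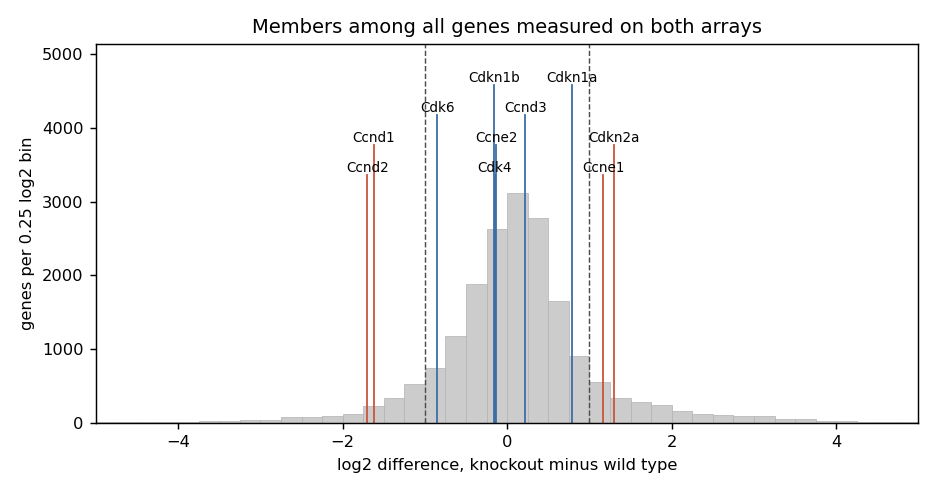
Histogram of the log2 difference, knockout minus wild type, over the 18671 genes measured on both arrays, in bins of 0.25, with a vertical line for each of the 10 members (red where past the dashed 2-fold limits, blue otherwise). Ccnd1 and Ccnd2 lie in the lower tail and Ccne1 and Cdkn2a in the upper tail, while the other 6 fall inside the limits.

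Each difference rests on short oligonucleotides of known sequence, so those behind the 4 genes past 2-fold are given by name and by the first 30 of their 60 bases, as the array files list them. The Ccnd2 probe nearest the start of its transcript is given whole.
Ccnd1 A_66_P111562: ttaatctgttaggttctagtgttccgtctt
Ccnd2 A_52_P53906: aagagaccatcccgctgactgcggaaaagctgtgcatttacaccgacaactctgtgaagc
Ccnd2 A_55_P2917114: aggcgtgttcgtcatttgctagccccttct
Ccnd2 A_65_P18532: gtggggtttatggttgggatacgaggagag
Ccne1 A_51_P408946: gcatgtcctgccttcatgaactcttatttt
Cdkn2a A_51_P144813: cacttctagcgatgctagcgtgtctagcat
Cdkn2a A_55_P2008437: ggcatgagaaactgagcgaaggcggccgcg
None of the 23 member probes shared a run of 20 or more bases with an array probe of a gene outside the members (0 such pairs). Probes of different members, such as those of the D cyclins, were not compared with each other. The probes were not compared with transcripts, so signal from a transcript that has no probe on the array was not examined.

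Signals below are processed intensities scaled to a common 75th percentile, in arbitrary units. Each carries the 1-sigma error that the scanner software assigned to the spot, which the software sets at 10% of the signal for bright spots and which covers error within an array, not between cultures. Every member probe was printed in a single spot. Repeated spots, available for 298 other probes, had an SD in log2 signal of 0.065 (wild type) and 0.070 (knockout). Signals of different probes cannot be set against each other, because probes differ in how well they bind, so no order of abundance among the members is given. The pattern of a gene over 2 arrays is a single difference, so no gene is named for a likeness to a member.

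The D cyclins differed among themselves. Ccnd1, which couples mitogen signals to Cdk4 and Cdk6, read 14444 ± 1444 in wild type and 4701 ± 470 in the knockout. Its log2 difference was −1.62 ± 0.20. The gene has a single probe, at position 3370 of its transcript (chr7:152116202-152116261, minus strand, mouse build mm9, as are all positions here). The files give positions but no exon or UTR, and no annotation of that build was used.

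Ccnd2, the D cyclin prominent in neural progenitors, was lower on each of its 3 probes, which span 23284 bases of the gene on chromosome 6. The probe at transcript position 609 (chr6:127098696-127098755) read 13198 ± 1320 in wild type and 3729 ± 373 in the knockout, a log2 difference of −1.82. The probe at position 1170 (chr6:127080268-127080327) read 62991 ± 6299 and 19371 ± 1937, a log2 difference of −1.70. The probe nearest the 3′ end (chr6:127075412-127075471), listed for a predicted transcript variant, read 13719 ± 1372 and 5222 ± 522, a log2 difference of −1.39. The wild type signal was thus at least 2.63-fold above the knockout signal at every measured place along Ccnd2, and the size of the difference was smallest at the 3′ end.

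Ccnd3, the third D cyclin, did not share that difference. Its 2 probes near the 3′ end, which start 7 bases apart on chromosome 17, read 16929 ± 1693 in wild type against 19724 ± 1972 in the knockout (log2 difference 0.22) and 16902 ± 1690 against 16498 ± 1650 (−0.03). A dimmer probe about 4 kilobases upstream, listed for an Ensembl transcript (chr17:47732637-47732696), read 726 ± 72.8 against 1159 ± 116, a log2 difference of 0.67. The gene value of 0.22 became −0.17 with spike-in centring, −0.03 with the probe nearest the 3′ end and lay at 0 to 2 decimals with quantile normalization, so Ccnd3 has no settled direction. The 3′ pair also shows how far near-identical probes can part. They overlap by 53 bases with 2 mismatches, the first of them C31A, counted from the 5′ base of A_55_P2041075, and their log2 differences were 0.26 apart. Bases 16 to 45 of A_55_P2041075 and the bases of A_55_P2918958 that align with them are shown, with the mismatch in capitals.
Ccnd3 A_55_P2041075: tggcccatttctatcCtgctgccttaataa
Ccnd3 A_55_P2918958: tggcccatttctatcAtgctgccttaataa

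**Figure D2:**
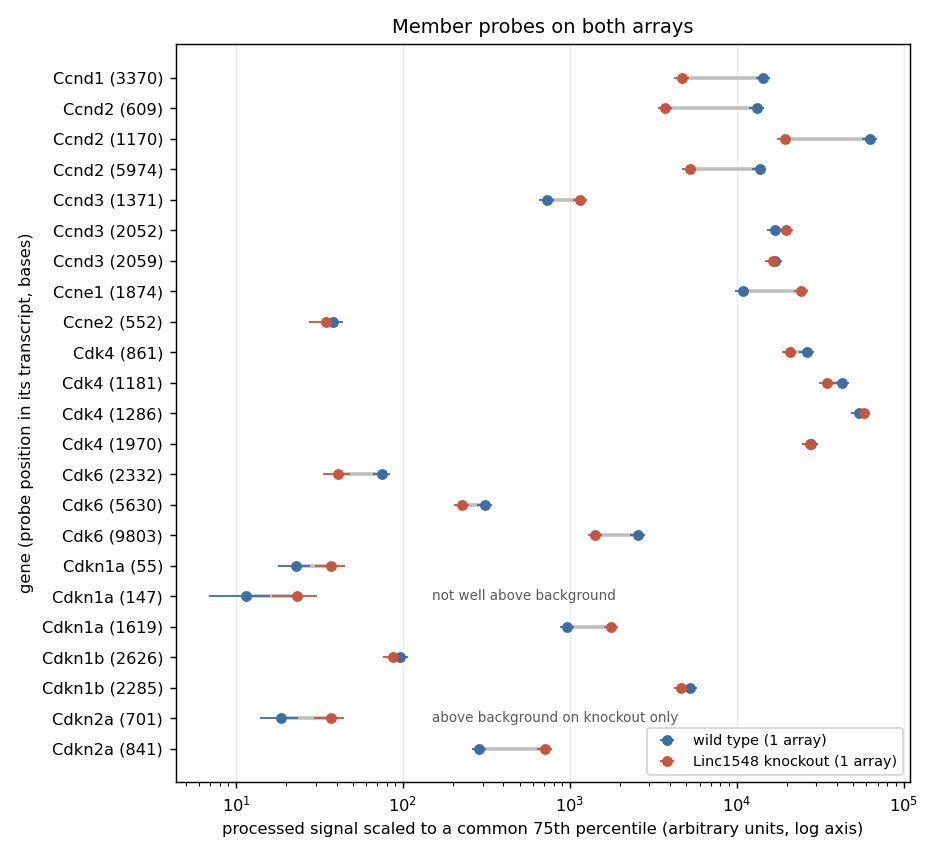
Scaled processed signal of each of the 23 member probes on the wild type array (blue) and the Linc1548 knockout array (red), on a log axis, with the software's 1-sigma error as bars and the probe's position in its transcript in parentheses. The Ccnd1 probe and all 3 Ccnd2 probes are clearly dimmer on the knockout array, the Ccne1 probe and the brighter Cdkn2a probe are brighter there, and for Cdk4 the paired points lie close together.

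Of the E cyclins, which act with Cdk2 at the entry to S phase, Ccne1 was the one with a bright probe. Its signal was 10852 ± 1085 in wild type and 24401 ± 2440 in the knockout, a log2 difference of 1.17 ± 0.20. The value fell below the 2-fold limit with spike-in centring (0.78), quantile normalization (0.96) and loess (0.97) and stayed positive in all 9 alternative settings that give a gene value. The file maps 24 of the 60 probe bases, at chr7:38882937-38882960.

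Ccne2 could hardly be read. Its only probe, at transcript position 552 (chr4:11122185-11122244), gave 38.1 ± 5.86 in wild type and 34.7 ± 7.41 in the knockout, against a lowest signal well above background of 21.3 and 30.5 on the same arrays. The log2 difference of −0.13 had an error of 0.38 from the software alone and turned to 0.22 with normexp background correction. At this signal a difference between the arrays was not detectable, and that probe leaves the level of cyclin E2 undetermined.

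Neither kinase passed 2-fold. Cdk4 was read by 4 probes on chromosome 10. The probes at transcript positions 861 and 1181 gave log2 differences of −0.35 (26431 ± 2643 in wild type, 20757 ± 2076 in the knockout) and −0.29 (42552 ± 4255 and 34847 ± 3485). The 2 probes nearest the 3′ end, which share a run of 53 bases, gave 0.10 (53902 ± 5390 and 57592 ± 5759) and −0.01 (27839 ± 2784 and 27562 ± 2756). The Cdk4 gene value of −0.15 ranged from −0.54 with spike-in centring to 0.10 with the brightest probe, so it too has no settled direction.

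Cdk6, the partner kinase of Cdk4, was lower on all 3 of its probes but within 2-fold. The probe at chr5:3529287-3529346 read 2565 ± 257 in wild type and 1423 ± 142 in the knockout, a log2 difference of −0.85. The probe at chr5:3525114-3525173 read 309 ± 31.3 and 226 ± 23.7, a difference of −0.45, and the dim probe at chr5:3522088-3522147 read 75.3 ± 8.80 and 40.7 ± 7.71, a difference of −0.89 ± 0.32. The gene value was −0.85. It reached −1.24 with spike-in centring, past the limit, and was −0.22 with normexp background correction.

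Among the inhibitors, Cdkn1a, the p21 gene that p53 activates, was higher without reaching 2-fold. Its probe in the 3′ part of the transcript (position 1619, chr17:29237377-29237436) read 969 ± 97.0 in wild type and 1775 ± 178 in the knockout, a log2 difference of 0.87. A probe near the transcript start (position 55, chr17:29227986-29228045) was close to background at 22.8 ± 5.00 and 37.1 ± 7.54, and its difference of 0.70 had an error of 0.43. The remaining probe was not well above background on either array. The gene value of 0.79 ranged from 0.40 to 0.87 over the settings, always positive and never at 2-fold.

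Cdkn1b, the p27 gene, was nearly level. Its bright probe (chr6:134875424-134875483) read 5282 ± 528 in wild type and 4665 ± 467 in the knockout, a log2 difference of −0.18, and a dim probe 1818 bases upstream read 96.4 and 87.2, a difference of −0.14 ± 0.24. Both differences lay within the software's error on them.

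Cdkn2a encodes p16INK4a and, from another first exon, the p53 regulator p19ARF. Both of its probes are listed for the RefSeq transcripts of both products, so the array does not separate them. The probe at position 841 (chr4:88920405-88920464) read 287 ± 29.1 in wild type and 706 ± 70.9 in the knockout, a log2 difference of 1.30 ± 0.21. The probe 140 bases upstream (chr4:88920545-88920604) read 36.9 ± 7.54 in the knockout and was not well above background in wild type (18.6 ± 4.75). By the readings alone it was at least 1.73-fold higher in the knockout. This bound takes 21.3, the dimmest wild type signal that counted as well above background, in place of the probe's own lower reading. It leaves out the error on the knockout reading, which lay near that array's dimmest such signal of 30.5. The gene value stayed past 2-fold in 8 of 9 alternative settings and was 0.91 with spike-in centring.

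**Figure D3:**
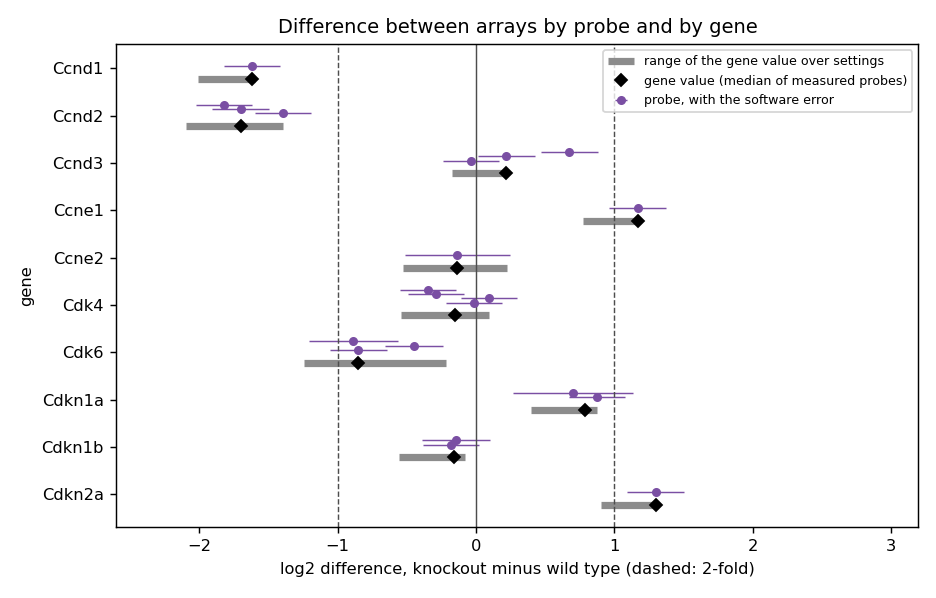
Log2 difference, knockout minus wild type, of each measured member probe (purple, with the software's error), the gene value (black diamond, the median of its measured probes) and the range of the gene value over the settings tried (grey bar), with dashed lines at 2-fold. The whole ranges of Ccnd1 (−2.01 to −1.60) and Ccnd2 (−2.09 to −1.39) lie beyond the lower limit, those of Ccne1 and Cdkn2a cross the upper limit, and those of Ccnd3, Ccne2 and Cdk4 span 0.

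A change in how the arrays are centred shifts every gene by the same amount, so contrasts between members on the same arrays do not depend on it. The log2 difference of Ccne1 exceeded that of Ccnd1 by 2.79 (6.91-fold) and that of Ccnd2 by 2.87 (7.31-fold), and over all settings by 2.72 to 2.79 and by 2.56 to 2.91. Ccnd3 exceeded Ccnd1 by 1.84 (1.58 to 1.84 over settings) and Ccnd2 by 1.92 (1.36 to 1.95). Ccnd1 and Ccnd2 were 0.08 apart, a gap whose sign changed with the setting (−0.23 to 0.19). The difference of Ccnd1 minus that of Cdk4, its kinase partner, was −1.47. These values show that the members changed unequally between the arrays, not which of them stayed constant.

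Position along the gene did not move the probe differences in a common direction. Between the measured probes nearest the 5′ and the 3′ end, the log2 difference was 0.43 higher at the 3′ end for Ccnd2, 0.33 for Cdk4, 0.17 for Cdkn1a and 0.04 for Cdk6. It was lower there for Ccnd3, at −0.71, and for Cdkn1b, at −0.03.

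Cell state markers also differed between the arrays. Their counts stand against 11.5% of all genes at least 2-fold higher and 8.81% lower. All 10 neural progenitor markers measured, among them Sox1, Pax6 and Nes, were at least 2-fold lower in the knockout, from −1.65 for Ncam1 to −4.78 for Hes5, and their summed signal was 131004 in wild type and 16083 in the knockout. Plagl1 in that list rests on probes that disagree (−5.20 and −0.01), and 9 of the 10 passed without the filter on dim probes. Of 10 neuronal markers 9 were at least 2-fold lower (Isl1 lowest at −4.92, Stmn2 highest at 0.21), with a summed signal of 43835 against 27779. That sum is led by the brightest probes, and the list median was −2.88. Isl1 read 59.5 in the knockout, where the lowest signal well above background was 30.5, and was −3.81 with normexp. The stricter filter on dim probes kept 6 of these markers, of which 5 were lower. Of 10 naive pluripotency markers 9 were at least 2-fold higher, up to 3.63 for Tfcp2l1, with Nanog at 0.66 from probes at −1.63 and 2.95 that disagree, and their summed signal was 7238 against 69367. All 8 primed epiblast markers were at least 2-fold higher, from 1.22 for Pou3f1 to 4.46 for Lefty2, with summed signals of 12206 and 60224. With spike-in centring 6 of these 8 passed, with Pou3f1 at 0.83 and Zic2 at 0.98. The naive count of 9 was 8 with spike-in or median centring and normexp, and 10 with the brightest probe. The part of this difference in cell state in the values of the cyclins and inhibitors was not tested. In bulk RNA, fewer cells of a type and less RNA per cell cannot be told apart.

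Markers of other lineages lay on both sides of 0. Of 10 measured genes of mesoderm and endoderm, 3 were higher by 2-fold or more (Eomes highest at 3.22) and 1 lower (Foxa2, −1.88), and Mixl1 was well above background in the knockout alone. Their summed signal was 27730 in wild type and 11871 in the knockout, of which Foxa2 alone gave 21971 and 5975, while the list median was 0.22. Such sums are led by the brightest probes and do not stand for the list. The count of 3 higher was 2 with quantile normalization, median centring or normexp. It was 1 with spike-in centring, where 2 were lower, and 1 with the stricter filter on dim probes, which kept 7 genes. Without a filter on dim probes it was 4 of 11. Eomes read 89.1 in wild type and 831 in the knockout, and its difference was 1.73 without that filter. Of 8 fibroblast and feeder genes, 1 was higher (Thy1, 2.17) and 1 lower (Col1a2, −1.31), with summed signals of 5564 and 5133. Over all genes 11.5% were higher and 8.81% lower by 2-fold or more. No probe names Linc1548 (0 probes), so the targeted RNA gave no check of the labels.

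The rest of the G1 pathway was read through 7 gene lists with 99 genes, all of them measured. In these lists 14 genes passed the limit upwards and 6 downwards, 79 stayed within 2-fold, and the median was 0.26. That is 14 and 6 of 99, against 11.5% and 8.81% of all genes.

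**Figure D4:**
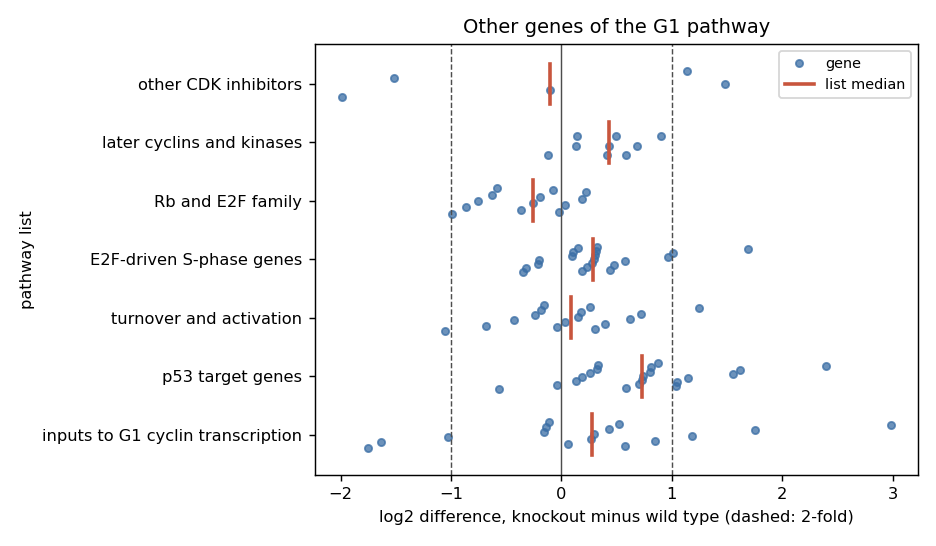
Log2 difference, knockout minus wild type, of each gene (blue) in the 7 lists of other G1 pathway genes, with the list median (red) and dashed lines at 2-fold. The other CDK inhibitors lie far out on both sides and the Rb and E2F family stays inside the limits. The p53 target genes, a list that includes Trp53 itself, have the highest median, at 0.73.

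The other CDK inhibitors were split. Cdkn1c (p57), the CIP/KIP member of differentiating cells and an imprinted gene, read 52098 in wild type and 13172 in the knockout, a log2 difference of −1.98. Cdkn2c (p18INK4c) was lower by the median of its 2 probes (−1.51, with −1.91 to −0.79 over settings). Cdkn3, a phosphatase that acts on CDKs, was higher at 1.49, and Cdkn2b (p15INK4b), the neighbour of Cdkn2a, was higher at 1.14 (0.75 with spike-in centring). Cdkn2d lay at −0.10. So 2 of 5 inhibitors were higher and 2 lower (1 and 1 with normexp, 1 and 2 with spike-in centring), against 11.5% and 8.81% of all genes. Within the INK4 class Cdkn2a and Cdkn2b were higher while Cdkn2c was lower. Cdkn2b and Cdkn2c were both under 2-fold with normexp (0.86 and −0.79). The stricter filter on dim probes left both without a value, and of the 3 inhibitors it kept 1 was higher and 1 lower.

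Later cyclins and kinases held no gene past 2-fold, and the Rb and E2F family none by the median of measured probes with 75th percentile centring. The shares over all genes were 11.5% higher and 8.81% lower. All 9 later cyclins and kinases lay between −0.12 for Cdk2, the kinase of the E cyclins, and 0.90 for Ccnb1, a mitotic cyclin. Ccna1, a germ line cyclin, was at 0.68 and the mitotic kinase Cdk1 at 0.13. The 13 Rb and E2F genes ran from −0.99 for E2f6, a repressor, and −0.86 for Rb1, the retinoblastoma protein, to 0.18 for E2f7 and 0.22 for E2f1, with a median of −0.26. Under other settings some of the 13 passed the lower limit, given here with the number lower among all 18671 genes in parentheses. There were 4 with spike-in centring (2986). There were 2 with the brightest probe (1750) or the probe nearest the 3′ end (1849). With quantile normalization (1801), loess (1718) or median centring (1885) there was 1.

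Of 20 S-phase genes that E2F drives, 2 were at least 2-fold higher and 0 lower, against 11.5% and 8.81% of all genes. The list median of 0.29 turned to −0.10 with spike-in centring. Mybl2, a cell cycle transcription factor, was higher (11932 in wild type, 38598 in the knockout, log2 difference 1.69), and Pola1, a DNA polymerase subunit, lay at the limit with 1.01. Pola1 was under 2-fold in all but 2 of 9 alternative settings, the changes of the dim-probe filter, and as low as 0.62 with spike-in centring. The count of 2 was 1 with quantile normalization, loess, spike-in or median centring and normexp. Tk1 (−0.34) and Rrm1 (−0.32), enzymes of nucleotide supply, were the lowest. Of 16 genes for the turnover and activation of G1 cyclins and inhibitors, 1 was at least 2-fold higher and 1 lower, against the same shares of all genes. Usp28, a deubiquitinase of MYC, was the higher one (1.25, or 0.86 with spike-in centring). Gsk3b, a kinase that marks cyclin D1 for breakdown, was the lower one (−1.06, with its 4 probes from −1.28 to −0.53 and −1.45 to −0.85 over settings). Skp1 (0.72) and Fbxo4 (−0.69, or −1.08 with spike-in centring), components of ubiquitin ligases, lay within 2-fold in the main setting. The count of 1 lower in this list was 2 with spike-in centring, the stricter filter, the brightest probe or the probe nearest the 3′ end. It was 0 with normexp, and the count of 1 higher was 0 with spike-in centring.

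Of 20 genes in the list of p53 and its targets, which the regulation of Cdkn1a belongs to, 6 were at least 2-fold higher and 0 lower. Over all genes the shares were 11.5% and 8.81%. Pmaip1 (NOXA) read 995 in wild type and 5255 in the knockout, a log2 difference of 2.40, and Bax was higher at 1.62; both promote apoptosis. Btg2 (−0.57) and Zmat3 (−0.04) were the lowest. The list median of 0.73 ranged from 0.34 to 0.74 over the settings, and the count of 6 ranged from 3 with spike-in centring to 7 with the brightest probe or the stricter filter. Fas rests on 2 probes that disagree (−0.61 and 2.24). The 6 genes past 2-fold include Trp53 itself (1.05). The 14 within 2-fold include Mdm2 (0.32), Sesn1 (0.19) and Ccng1 (0.14). The value of Cdkn1a, 0.79, was close to the list median, and a link of Cdkn1a to the list was not tested.

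Of 16 inputs to the transcription of G1 cyclins and INK4 genes, 3 passed 2-fold upwards and 3 downwards, against 11.5% and 8.81% of all genes. Klf4, a pluripotency factor that is also in the naive marker list, was highest at 2.99 and Lef1, a Wnt effector, followed at 1.76. Smad3, an effector of TGF-beta, was lowest at −1.75, and Bmi1, a Polycomb protein known as a repressor of the Cdkn2a locus, read lower on both of its probes with a gene value of −1.63 (−1.15 to −2.02 over settings). The other Polycomb proteins in the list did not share that difference. Cbx7 was higher at 1.18 (0.79 to 1.54 over settings) and Ezh2 lay at −0.16. A link of these genes to Cdkn2a was not tested.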

How the data were processed

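The deposited files are 1-colour Cy3 scanner output, and the file headers name Agilent Feature Extraction 10.7.1.1. The authors' deposited intensity values were background-subtracted and detrended within each array, per the file headers, and not normalized between arrays. The flags for background and outliers used here are other columns deposited in the same files. The headers give both arrays the same slide and scan, at different array positions, so position and culture cannot be told apart from genotype. Spots called outliers were left out, spots of a probe averaged as log2 intensity, and each array centred on its 75th percentile (864 for wild type, 652 for knockout). A probe was measured where at least 0.5 of its spots were well above background and none saturated on both arrays, which held for 31536 of 56589 probes and 21 of 23 member probes. Gene names were updated through RefSeq (GRCm38.p6, names only). A gene value is the median over its measured probes.

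The members, lists and fold limit were chosen with earlier results of these data known. All members with every probe are named, with the 2 highest and 2 lowest genes of each pathway list and the highest and lowest of each marker list. Named beyond that rule are Cdkn2d, Fas, Trp53, Mdm2, Sesn1, Ccng1, Cbx7, Ezh2 and the markers Sox1, Pax6, Nes, Plagl1, Zic2 and Mixl1. Alternatives changed the scaling (quantile, loess, 8 spike-in probes, median), the background correction (limma 3.58.1, normexp with offset 50), the filter on dim probes, the probe summary and the fold limit. The steps were tested on simulated data. The number of arrays limits the precision.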

Additional observations from a re-analysis of the deposited data

How the results depend on the processing

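Ccnd1 and Ccnd2 were at least 2-fold lower in the knockout in all 9 alternative settings that give a gene value. No member past 2-fold changed sign in any of them. The number of members at least 2-fold higher was 2, but 1 after quantile normalization, 1 after loess and 0 after spike-in centring, which shifts every difference by −0.39. The median over the members, −0.14, was −0.27 with quantile normalization, −0.54 with spike-in centring, 0.024 with normexp background correction and −0.020 with the brightest probe. In the pathway lists, 7 genes were higher and 11 lower with spike-in centring, and 28 higher and 12 lower at a limit of 1.5-fold. Spike-in centring also turned the split over all genes from 2149 higher and 1644 lower to 1390 higher and 2986 lower. Without the filter on dim probes that split was 4036 and 2587, and with the stricter filter, a scaled signal of at least 200, it was 1015 and 982. Quantile normalization gave 1949 and 1801, loess 2022 and 1718, median centring 1896 and 1885, normexp 1557 and 1048, and the 1.5-fold limit 4042 and 3111. The cause of these differences was not tested. The alternative with the probe nearest the 3′ end was chosen after seeing the data and left the member counts at 2 and 2. The stricter filter left Ccne2 without a value. Signal over background limits Ccne2, 2 of the 3 Cdkn1a probes and the dimmest probes of Cdkn2a, Cdk6 and Cdkn1b. No paired analysis was possible because each group has 1 array, and for the same reason no replicate could be left out.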

Other observations

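A further 32 cyclins and cyclin-dependent kinases, found by their names after the values were seen and outside the lists above, were measured on both arrays. Past 2-fold lay 2 of the 32 upwards and 4 downwards in the knockout, against 11.5% and 8.81% of all genes, and the median log2 difference was −0.10. Ccno, a cyclin of multiciliated cells and oocytes, was the furthest out, at 268 in wild type and 1355 in the knockout (2.34), and Cdk18 was next at 532 and 1630 (1.62). Cdk5r1, the p35 activator of the neuronal kinase Cdk5, read 1536 in wild type and 591 in the knockout (−1.38). Ccnj (−1.30), Ccnjl (−1.20) and Cdk14 (−1.21, with its 2 probes at −2.14 and −0.29) were lower. Of these genes past 2-fold, all but Cdk14 kept their side of the limit over the settings tried. Others of the 32 passed the lower limit at their lowest over the settings: Cdk16 (−1.33), Cdk3 (−1.07) and Cdk5r2 (−1.01).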
